A study of Homo sapiens with 4 samples.

Results

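Both immunoprecipitates of a native nuclear RNA immunoprecipitation experiment (nRIP-seq) were compared with both of their inputs, to describe what they shared whichever antibody was used. The comparison used all 4 libraries of the series, 2 pull-downs and 2 inputs. Of 60676 genes in the count table, 8672 had at least 100 reads in each input and were not encoded by the mitochondrial genome, and these are the genes tested. They were chosen on the inputs alone. Counts were expressed as CPM, the usual share of reads scaled to a fixed library size, over all reads outside mitochondrial genes, and 100 reads in an input corresponded to at most 11.9 CPM.

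All libraries came from U2OS, an established human osteosarcoma cell line, with no treatment named for any of them. The study set out to find mRNAs bound by LC3B. The IgG pull-down was made with a non-specific IgG as the negative control, and the LC3B pull-down with an antibody against LC3B. The IgG input and the LC3B input are the matching samples taken without antibody, and polyadenylated RNA was amplified with a kit for very small amounts in every library. Each antibody was used in 1 library. A shared difference therefore rests on 2 pull-downs made with different antibodies, and its spread includes whatever the antibodies did differently. In bulk samples of this kind less RNA recovered per cell and fewer cells cannot be told apart.

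In native RNA immunoprecipitation, a nuclear lysate that has not been crosslinked is incubated with an antibody on beads, the beads are washed, and the RNA left on them is sequenced. RNA can be held by the target protein, but also by the beads, by the antibody itself or within large complexes that settle with them. A non-specific IgG measures that background. A difference from the input that both pull-downs share is therefore read separately from one seen with a single antibody. LC3B, encoded by MAP1LC3B, is a ubiquitin-like protein attached to autophagosome membranes and is also present in the nucleus.

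The 4 libraries held 10000914 to 10886762 reads. Mitochondrial genes took 22.8% and 20.8% of the IgG and LC3B inputs and 1.76% and 0.774% of the IgG and LC3B pull-downs, so totals without them (8404123 to 10375786 reads) were used. The genes tested held 95.8% to 96.6% of those reads. The IgG pull-down stood apart. It had reads on 14425 genes outside the mitochondrial genome, against 22932 to 23900 in the other libraries, and 491 of the 8672 genes tested (5.66%) had no read in it, against 0 in the LC3B pull-down. Ratios to the own input below -3 on the log2 scale were found for 928 genes (10.7%) in the IgG pull-down and for 6 in the LC3B pull-down. The osteosarcoma and mesenchymal markers fixed for the line summed to 2870 and 3280 CPM in the IgG and LC3B inputs and to 2040 and 3970 CPM in the corresponding pull-downs, with 6 of 10 among the genes tested, TWIST1 at 0 in all 4 libraries and COL1A2 at 0 to 0.305 CPM. Of 25 markers of other cell types, 12 were under 1 CPM in both inputs, and most of their summed level (2900 to 4800 CPM) was KRT8 and KRT18, the simple-epithelial keratins. The part of these differences between libraries in the results was not tested.

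Each pull-down differed more from its own input than the inputs differed from each other. With 0.5 CPM added to each value, the log2 ratio of the IgG pull-down to its input had a median of -0.23 and a standard deviation of 1.77 over the 8672 genes. The same ratio for LC3B had a median of -0.07 and a standard deviation of 0.69. Between the inputs the standard deviation was 0.18. The pull-downs ranked genes alike only in part, with a Spearman rho of 0.33 between the ratios across genes, which are not independent replicates and share each library's depth and scaling. Both ratios were above 0 for 2223 genes and below 0 for 3287.

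A strict rule was used for a shared difference: each pull-down had to be at least 2-fold above, or below, each input. By this rule 51 of 8672 genes (0.588%) were called raised and 349 (4.02%) were called lowered. Against its own input alone, the LC3B pull-down was at least 2-fold higher for 289 genes (3.33%) and lower for 997 (11.5%), and the IgG pull-down for 831 (9.58%) and 2399 (27.7%). Of these, 71 were higher in both, which is 24.6% of the LC3B and 8.54% of the IgG genes, and 429 were lower in both, 43% of the LC3B and 17.9% of the IgG genes. Opposite 2-fold differences were seen for 20 genes that were higher with IgG and lower with LC3B and for 40 genes the other way round. The counts depended on the libraries used, though under this rule leaving a library out can only keep or add calls. Without the IgG pull-down 218 genes were raised and 861 lowered, without the LC3B pull-down 708 and 2294, and without the LC3B input 99 were raised. Totals that include mitochondrial reads gave 303 raised and 134 lowered genes, and moved the median ratio of all genes from -0.23 to 0.11 for IgG and from -0.07 to 0.25 for LC3B. With those totals 69.3% of the calls were raised, against 12.8% here. The words raised and lowered below refer to shares of the RNA outside mitochondrial genes, and medians of gene groups are given relative to the median of all genes tested.

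Given the spread between the pull-downs, a test over the 4 libraries without pairing made no call. With limma on log2(CPM + 0.5), 0 of 8672 genes were higher and 0 were lower in the pull-downs at an adjusted p (Benjamini-Hochberg) of 0.05, that is 0% in each direction, and the smallest adjusted p was 0.257. At an unadjusted p of 0.05, limma gave 588 genes higher (6.78%) and 780 lower (8.99%). With each pull-down paired with its own input as a block, limma called 41 genes higher (0.473%) and 270 lower (3.11%). Without the IgG pull-down limma called 2578 higher and 3201 lower, and without the LC3B pull-down 2637 and 4199, because the lone pull-down is then assumed to vary as little as the inputs do. Without either single input it called 1 gene lower. The genes named below are therefore described by their values in the 4 libraries and by the 2-fold rule. None had an adjusted p under 0.05 in limma's 4-library fit without the block. Which of them were called with the block is not given here.

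**Figure D1:**
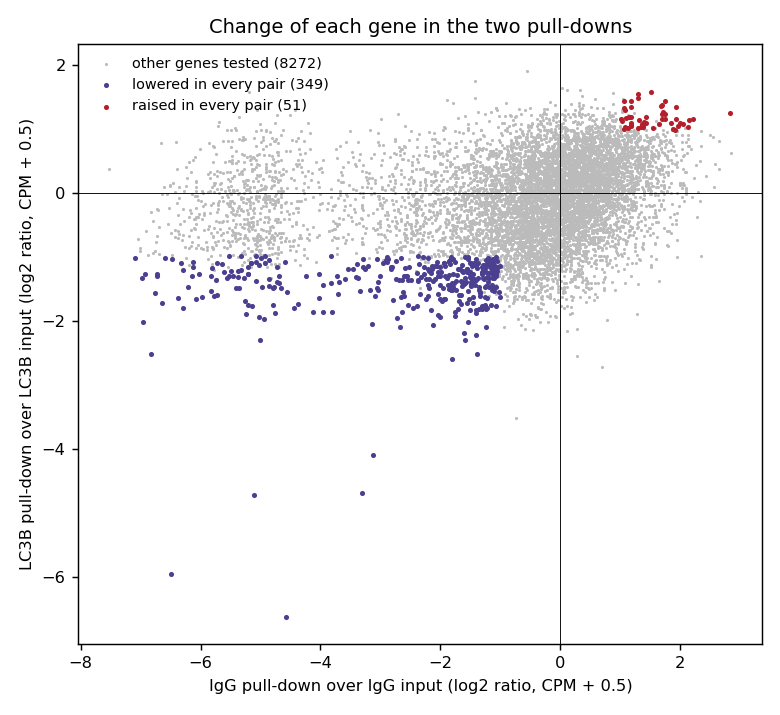
Log2 ratio of each pull-down to its own input (CPM without mitochondrial genes, 0.5 added) for the 8672 genes tested, IgG on the x axis and LC3B on the y axis. The 51 raised genes lie in the upper right corner and the 349 lowered genes along the lower left, and 928 genes lie below -3 on the IgG axis against 6 on the LC3B axis.

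The differences of the raised genes were moderate in size. Their median level in the inputs was 32.9 CPM, against 47.6 CPM over all genes tested, and none was above 277 CPM in either input. The largest nearest-pair fold, the lower pull-down over the higher input, was 2.84. Of the 51, 48 were protein-coding, 2 were long non-coding RNAs (lncRNAs) and 1 was TRBC2, a T cell receptor constant segment, at 41.2 and 39.4 CPM in the IgG and LC3B inputs and 87.8 and 96.9 CPM in the IgG and LC3B pull-downs. Genes below are given in this library order throughout.

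OBSL1, which encodes a cytoskeletal adaptor (hg38 chr2:219550728-219571859), had the largest nearest-pair fold. It was at 16.1 and 15 CPM in the inputs and at 46.9 and 45.7 CPM in the pull-downs, a mean log2 difference of 1.55 ± 0.04 (SD, n = 2 pairs). This was 2.92-fold (95% counting interval 2.41 to 3.57) with IgG and 3.05-fold (2.50 to 3.74) with LC3B. PPOX, the penultimate enzyme of haem synthesis, went from 16.7 and 14.4 CPM to 41.9 and 42.8 CPM. IGSF8, a tetraspanin-associated membrane protein, went from 18.6 and 15.9 CPM to 46.9 and 45.4 CPM. In these 3 genes the pull-downs agreed closely and lay far from both inputs.

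SNHG30, a small nucleolar RNA host gene (chr17:35568076-35574900), was at 36.5 and 41.1 CPM in the inputs and at 120.0 and 107 CPM in the pull-downs. The other raised lncRNA, AL118516.1 (chr22:46761894-46762563), was at 23.8 and 19.8 CPM and at 81.5 and 54.5 CPM. In most of the other leading genes the IgG pull-down was the higher one. TFPT, a subunit of the INO80 chromatin remodeller, was at 16.3 and 16.9 CPM in the inputs and 63.9 and 43.4 CPM in the pull-downs. MVP, the major vault protein, differed most between antibodies, at 23.3 and 22.5 CPM against 169 and 54.2 CPM. HSPBP1, a co-chaperone of HSP70, was at 24.4 and 26.7 CPM against 81.5 and 64.5 CPM. SLC52A2, a riboflavin transporter, was the most abundant of the 12 leading genes, at 107 and 112 CPM against 353 and 264 CPM. CCDC124, a ribosome-associated protein, was at 98.8 and 96.1 CPM against 334 and 227 CPM. CYREN, a regulator of DNA end joining, and RFXANK, a subunit of the RFX complex of MHC class II promoters, were raised as well. In all 12 genes both pull-downs lay above both inputs by 2.28-fold or more.

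The lowered genes reached much larger differences. Of 349, 334 were protein-coding, 11 were lncRNAs and 4 had other biotypes. Their median input level was 52.5 CPM, against 47.6 CPM over all genes tested. In 13 of the lowered genes each pull-down was at least 4-fold below each input, against 0 of the raised genes. No read of 49 lowered genes was found in the IgG pull-down, and 273 had at least 10 reads in both pull-downs.

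By nearest-pair fold, among genes with a symbol of their own, the largest differences were those of nuclear copies of mitochondrial sequence. MTATP6P1 (chr1:633696-634376), an unprocessed pseudogene of a subunit of ATP synthase, was at 1930 and 1760 CPM in the inputs and at 80.3 and 17.5 CPM in the pull-downs. MTCO1P12 was at 116 and 92 CPM against 12.8 and 4.92 CPM, and MTCO3P12, its neighbour on chromosome 1, at 28.4 and 22.2 CPM against 2.44 and 0.386 CPM. MTRNR2L12 on chromosome 3, a copy of the mitochondrial large ribosomal RNA gene annotated as protein-coding, was at 30.8 and 30.3 CPM against 0.407 and 0.675 CPM. These copies are nearly identical to genes of the mitochondrial genome, so reads of either could have been assigned to the other, and their level is uncertain. Mitochondrial genes themselves took 22.8% and 20.8% of all input reads and 1.76% and 0.774% of all pull-down reads.

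Outside these copies, and again among genes with a symbol of their own, YOD1, a deubiquitinase of endoplasmic reticulum-associated degradation (chr1:207043849-207052980), had the largest nearest-pair difference, at 55.8 and 64.4 CPM in the inputs, 0 in the IgG pull-down and 10.8 CPM in the LC3B pull-down. SGO2, which protects centromeric cohesin in meiosis and mitosis (chr2:200510008-200584096), was at 164 and 164 CPM against 37.4 and 38.9 CPM. It had 367 and 404 reads in the pull-downs, and its mean log2 difference of -2.09 ± 0.04 (SD, n = 2 pairs) was alike with both antibodies, whose counting intervals overlapped. THAP5, a zinc finger protein, was at 42.7 and 41.1 CPM against 6.31 and 9.25 CPM, and APPL1, an endosomal adaptor of RAB5, at 75.4 and 65.6 CPM against 8.14 and 15.5 CPM.

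The other leading genes were at or near 0 with IgG. AIDA, an axin-binding protein, was at 61.6 and 59.7 CPM in the inputs, 0 with IgG and 14.4 CPM with LC3B. TTPA, the alpha-tocopherol transfer protein, and AMMECR1 were likewise at 0 with IgG and at 2.89 and 3.66 CPM with LC3B, from 12.4 to 15.8 CPM in the inputs. COBLL1, related to the actin nucleator cordon-bleu, was at 22.1 and 18.5 CPM against 1.12 and 4.72 CPM. The 24 leading genes, 12 in each direction, kept their call in 96 of 96 recalculations with TMM, median-of-ratios, totals with mitochondrial reads and deposited TPM. They had been picked for the largest folds in these same data, so such recalculations were unlikely to remove a call.

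**Figure D2:**
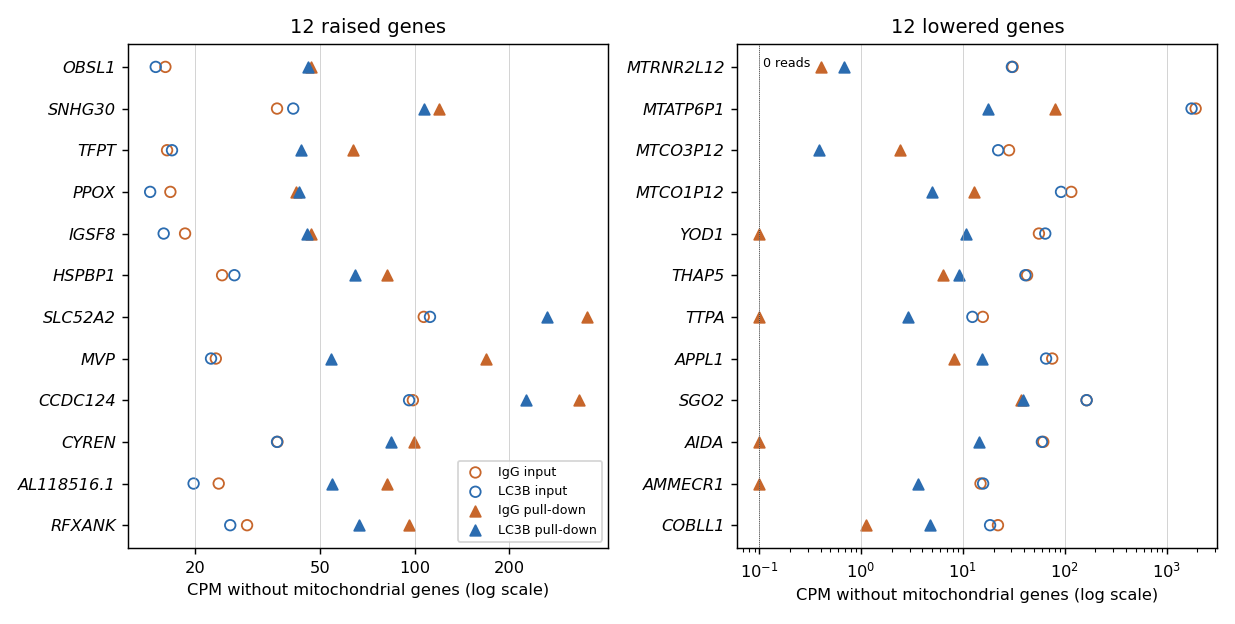
CPM without mitochondrial genes (log axis) of the 12 raised and the 12 lowered genes with the largest nearest-pair fold, with open circles for the inputs and filled triangles for the pull-downs. Values of 0 are drawn at the dotted line, and for every gene both triangles lie on the same side of both circles, with OBSL1 at 46.9 and 45.7 CPM and SGO2 at 37.4 and 38.9 CPM.

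The difference from the inputs followed the length of the gene on the chromosome, its span from start to end as deposited. Relative to all genes, 779 genes under 5 kb had a median log2 ratio of 0.44 with IgG and 0.45 with LC3B, and 2400 genes of 5 to 20 kb one of 0.23 and 0.24. The 2453 genes of 20 to 50 kb were near the middle, at -0.05 and -0.08. Genes of 50 to 100 kb (1568) were at -0.27 with each antibody, and 982 genes of 100 to 200 kb were lowest, at -0.38 and -0.32. Above that the medians turned back, to -0.26 and -0.22 for 423 genes of 200 to 500 kb and to -0.17 and 0.01 for the 67 longest. The medians of the pull-downs thus differed by at most 0.06 in every class below 500 kb, although they came from separate libraries with different antibodies.

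Up to 200 kb, the lowered calls followed this order more closely than the raised ones, which were few in every class. Raised genes made up 0.770% of the genes under 5 kb, 1.04% of those of 5 to 20 kb, 0.611% of those of 20 to 50 kb and 0.191% of those of 50 to 100 kb, against 0.588% of all. Lowered genes made up 1.16% of those under 5 kb, 1.92% of those of 5 to 20 kb and 4.32% of those of 20 to 50 kb. They made up 6.51% at 50 to 100 kb and 7.03% at 100 to 200 kb, against 4.02% of all. Above that the share fell to 3.31% at 200 to 500 kb and was 4.48% at 500 kb and more. The median span was 16.0 kb for raised, 31.5 kb for all and 55.4 kb for lowered genes. Of the raised genes 31 (60.8%) were shorter than 20 kb, as were 36.7% of all genes, and 188 lowered genes (53.9%) spanned 50 kb or more, as did 35.1% of all. Across genes, Spearman's rho between span and ratio was -0.22 for IgG and -0.33 for LC3B.

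Individual genes departed from the trend at both ends. MAD1L1, a spindle checkpoint protein in the 200 to 500 kb class, was raised at 43.1 and 43.1 CPM against 192 and 88.6 CPM, and COL4A2, a basement membrane collagen of the same class, at 46.5 and 55.8 CPM against 138 and 113 CPM. LMNA, the gene of nuclear lamins A and C, was raised in the 50 to 100 kb class, at 241 and 230.0 CPM against 783 and 514 CPM. YOD1 was lowered with a span of 9.13 kb.

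Transcript length gave a second gradient. No transcript lengths were used here, but the ratio of a gene's count to its TPM in the inputs is proportional to it, and is given here relative to the median gene. In the shortest of 5 equal classes, up to 0.59 of the median length, the relative median was 0.37 with IgG and 0.27 with LC3B. It was 0.21 and 0.12 in the second class, -0.07 and 0.03 in the third, -0.29 and -0.13 in the fourth and -0.56 and -0.34 in the longest, from 1.61 upwards. From short to long the classes held 16, 20, 6, 6 and 3 raised genes and 17, 27, 51, 111 and 143 lowered ones. So 36 raised genes (70.6%) were in the shortest 2 classes and 143 lowered genes (41%) in the longest. OBSL1 had an implied length of 0.41, TFPT of 0.43 and RFXANK of 0.31, while YOD1 had 3.47 and AMMECR1 1.75. The share of genes without a read in the IgG pull-down went from 0.403% in the shortest class to 11.2% in the longest, and its part in the IgG medians was not tested.

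Span and transcript length were related to each other (rho 0.38 across genes), and each gradient was also seen within classes of the other. Among the genes in the shortest class of transcript length, the relative medians went from 0.54 with IgG and 0.47 with LC3B for spans under 5 kb to 0.25 and 0.04 at 50 to 100 kb and to -0.01 and 0.04 at 100 to 200 kb. Among those in the longest class they went from -0.39 and -0.09 at 5 to 20 kb to -0.73 and -0.50 at 100 to 200 kb. At 20 to 50 kb, the shortest class stood at 0.25 and 0.11 and the longest at -0.50 and -0.26.

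**Figure D3:**
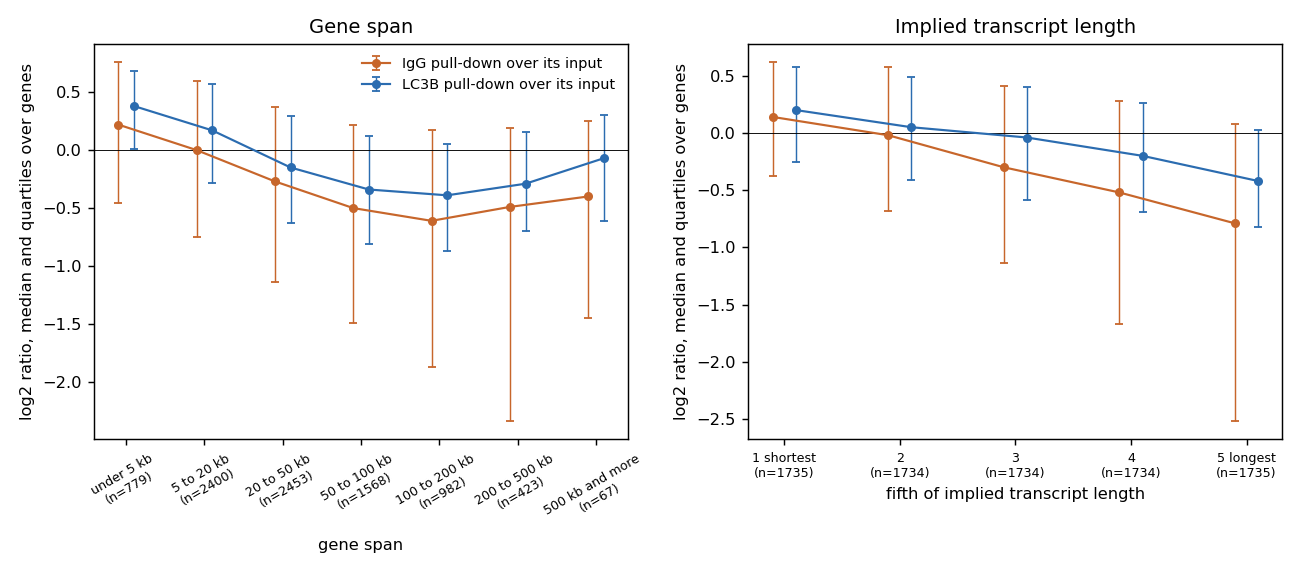
Median log2 ratio of each pull-down to its own input (points) with the quartiles over genes (bars), by gene span on the left and by class of implied transcript length on the right. With IgG the median goes from 0.22 under 5 kb to -0.61 at 100 to 200 kb and with LC3B from 0.38 to -0.39, and the lower quartile of IgG reaches farthest down for long genes and long transcripts.

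The medians moved less with the level in the inputs and with the number of annotated transcripts. Genes under 20 CPM in the inputs had relative medians of -0.22 with IgG and 0.11 with LC3B, and genes of 100 to 300 CPM 0.11 and -0.10, so the pull-downs went in opposite directions. Genes with 1 annotated transcript were at -0.04 and 0.10 and those with 21 or more at 0.08 and 0.08. The share of lowered genes did change with the number of transcripts, from 4.99% with 1 and 5.19% with 2 to 5 through 4.31% with 6 to 10 and 3.22% with 11 to 20 to 1.55% with 21 or more, against 4.02% of all. The GC content of the promoter window, from 250 bases before to 50 after the annotated start in RefSeq (GRCh38.p14), was found for 4932 genes. Over 5 classes of GC content the relative medians stayed between -0.03 and 0.04 with IgG and between -0.05 and 0.02 with LC3B.

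The use of transcripts within genes can be read from the same count-to-TPM ratio. In genes with 2 or more annotated transcripts the implied length in the LC3B pull-down was under 0.8 times that in its input for 5.60% of genes and over 1.25 times for 4.44%. Between the inputs these shares were 3.38% and 3.83%. In the IgG pull-down they were 16.7% and 9.20%. Of 7400 genes compared in both pull-downs, with a minimum of 20 reads, 153 were under 0.8 in both and 77 over 1.25 in both. The overlap to be had without any relation between the pull-downs was not computed.

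By biotype, the pull-downs and the inputs were much alike. Protein-coding genes took 96.3% and 96.2% of the reads outside mitochondrial genes in the inputs and 96.4% and 96.1% in the pull-downs, and lncRNAs 2.66% and 2.71% against 2.69% and 2.98%. The 345 lncRNAs tested had relative medians of 0.07 with IgG and 0.28 with LC3B, with 2 raised (0.580%) and 11 lowered (3.19%), close to the 0.588% and 4.02% of all genes. By span, lncRNAs under 5 kb (96) were at 0.15 with IgG and 0.36 with LC3B, those of 50 to 100 kb (34) at -0.32 and 0.05 and those of 100 to 200 kb (32) at 0.00 and 0.50, and whether this differs from all genes was not tested. GIHCG was among the lncRNAs with the largest mean ratio, at 32.5 and 31.6 CPM against 60.6 and 94.4 CPM, and AC105942.1 among those with the smallest, at 35.1 and 33.1 CPM against 0 and 13.2 CPM. With an input minimum of 10 reads the mean relative median of lncRNAs was -0.01.

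Unprocessed pseudogenes took 0.232% and 0.213% of the reads in the inputs and 0.0368% and 0.0299% in the pull-downs. This difference lay in the copies of mitochondrial genes, which took 0.210% and 0.190% against 0.0101% and 0.00252%. The rest of the class took 0.0226% and 0.0241% against 0.0271% and 0.0275%. Transcribed unprocessed pseudogenes took 0.246% and 0.262% against 0.303% and 0.288%. The one RNA of the miscellaneous class that was tested, RN7SL1 of the signal recognition particle, was at 23.8 and 33.8 CPM against 14.1 and 2.51 CPM, so it was 2-fold lower only with LC3B. It is not normally polyadenylated and has many near-identical copies, which makes its level uncertain.

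Gene families were described with 34 lists. For each, the relative median is given for IgG and then LC3B, and 0 is the median of all genes tested. A second value, called matched, was obtained after subtracting from each gene the median of genes of the same span and transcript length class, a step added after the data were seen. In all, 9 of the 51 raised (17.6%) and 63 of the 349 lowered genes (18.1%) belonged to a list, as did 1737 of all genes tested (20%). The calls within a list are to be read against 0.588% raised and 4.02% lowered over all genes, and they depend on the totals used, as those over all genes do.

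Collagens and matrix proteins were the list with the highest relative median with LC3B, at 0.37 and 0.73 over 41 genes, with 2 raised and 1 lowered. They had a median span of 58.9 kb and a median implied transcript length of 1.51, and the matched medians were 0.90 and 0.88. Both pull-downs were above their inputs for 22 of the 41 and below for 2. COL4A2 and LAMB3, a laminin chain (44.3 and 43.9 CPM against 90.5 and 98.3 CPM), were raised. PLOD2, a collagen lysyl hydroxylase, was lowered at 175 and 199 CPM against 21 and 75.7 CPM, and PLOD3, of the same enzyme family, was at 30.7 and 39.3 CPM against 0.102 and 81.3 CPM, higher with LC3B and near 0 with IgG. Lysosomal hydrolases and membrane proteins stood at 0.50 and 0.33 over 35 genes (matched 0.39 and 0.27). GRN, the precursor of granulins, was raised at 107 and 109 CPM against 335 and 231 CPM. IDS, a sulphatase of glycosaminoglycan breakdown, was below both inputs at 152 and 144 CPM against 46 and 74.3 CPM. Plasma membrane and organelle solute carriers were at 0.30 and 0.18 over 89 genes, with SLC52A2 raised and SLC39A6 and SLC30A9, both zinc transporters, lowered. The 112 TMEM genes were at 0.18 and 0.14, with TMEM115, a Golgi protein, raised and TMEM161B and TMEM123 lowered.

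Respiratory chain, proteasome and actin and tubulin genes were above the middle in both pull-downs without any raised member. The 81 nuclear-encoded respiratory chain genes were at 0.45 and 0.21 and the 37 proteasome subunits at 0.50 and 0.22, and with matching they were at 0.10 and -0.06 and at 0.28 and -0.07. No member of either list was raised or lowered, but on totals with mitochondrial reads 10 respiratory chain genes were raised, with 0 lowered, and no proteasome subunit was called. UQCRC1, a core subunit of complex III, was at 290.0 and 307 CPM against 1050 and 527 CPM, and PSMD2, of the proteasome's base, at 247 and 266 CPM against 842 and 400.0 CPM. The 55 actin and tubulin genes were at 0.31 and 0.21, also with no call, against 6 raised on totals with mitochondrial reads. FLNA, the actin crosslinker filamin A, was at 74.6 and 103 CPM against 330.0 and 172 CPM.

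The translation machinery was divided. Cytosolic ribosomal proteins (85 genes, 0 raised, 0 lowered) were at -0.10 with IgG and 0.51 with LC3B. Mitochondrial ribosomal proteins (78 genes) were at 0.50 and -0.02, with MRPS35 lowered at 180.0 and 147 CPM against 72.7 and 43.2 CPM. With TMM or median-of-ratios factors 0 genes of that list were lowered. On totals with mitochondrial reads 0 were lowered and 6 raised. RPL8 was higher in both pull-downs, at 956 and 745 CPM against 1650 and 1360 CPM, and RPL22L1 lower in both, at 46.3 and 43.9 CPM against 15.1 and 31.4 CPM. Of 61 genes listed as translation factors, which include regulators and had relative medians of 0.31 and 0.10, 3 were lowered. EIF4EBP2, a repressor of cap-dependent initiation, was at 179 and 164 CPM against 20.6 and 54 CPM. EIF2AK2, the double-stranded RNA-activated kinase PKR, was at 174 and 166 CPM against 65.8 and 45 CPM. EIF3E, a subunit of eIF3, was at 496 and 493 CPM against 230.0 and 230.0 CPM. Aminoacyl-tRNA synthetases (32) were at 0.10 and 0.11 with no call.

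Nuclear pore and nuclear transport genes were low in both pull-downs, with relative medians of -0.48 and -0.43 over 54 genes and 7 lowered (13%) and 0 raised. On totals with mitochondrial reads 1 member was lowered. Both pull-downs were below their inputs for 30 of the 54. The matched medians were -0.07 and -0.23. Their median span of 60.0 kb and implied length of 1.46 were close to those of the collagens and matrix proteins, which lay on the other side of all genes. The part of span and length in the position of either list was not tested. TPR, of the nuclear basket, was at 162 and 171 CPM against 78.4 and 76.2 CPM, with little between the antibodies. NUP42 was at 68.3 and 72.7 CPM against 30.6 and 32.8 CPM. NDC1, which anchors the pore in the envelope, was at 91.6 and 98 CPM against 7.13 and 38.3 CPM, and KPNA3, an importin alpha, at 62.8 and 64.1 CPM against 0 and 25.4 CPM. NUP155, IPO7 and XPO4 were lowered too. At the other end NUP93 was at 80.1 and 75.4 CPM against 198 and 109 CPM. The relative median of the mean of both ratios was -0.34 for the list, and 0.04 with an input minimum of 500 reads.

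Ubiquitin-specific proteases and HECT ligases were at -0.33 and -0.40 over 49 genes, and at -0.40 for the mean of both ratios, with USP12, USP8 and HECTD2 lowered (6.12%), and matched medians of 0.15 and -0.09. Homologous recombination and Fanconi anaemia genes were at -0.29 and -0.30 over 29 genes with 3 lowered, and matched medians of -0.06 and -0.11. XRCC2, a recombination factor, was at 20.6 and 26.2 CPM against 3.16 and 9.93 CPM, and NBN, of the MRN complex, at 126 and 126 CPM against 44.4 and 58.6 CPM. DEAD and DEAH box helicases were at -0.32 and -0.10 over 44 genes with 5 lowered (matched -0.18 and -0.14). On totals with mitochondrial reads the helicases had 0 lowered and 0 raised. Among the 5 was DDX21, a nucleolar helicase, at 125 and 123 CPM against 21.5 and 54.7 CPM. DDX50, its close relative, was at 92 and 87.8 CPM against 19.5 and 38.4 CPM. ZNF zinc finger genes were at -0.26 and -0.16 over 144 genes with 9 lowered (6.25%) and 0 raised (matched -0.17 and -0.18). On totals with mitochondrial reads the ZNF genes had 0 lowered and 2 raised. ZNF22 was the most abundant of them, at 296 and 287 CPM against 118 and 98.7 CPM, and ZNF451 was at 89.1 and 88.5 CPM against 36.9 and 28.5 CPM.

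Mitosis, kinesin and kinetochore genes were near the middle with IgG (-0.03) and below it with LC3B (-0.37) over 62 genes, with 5 lowered and 0 raised. CENPF and CENPE, large coiled-coil kinetochore proteins, were at 368 and 417 CPM against 172 and 167 CPM and at 77.1 and 86.6 CPM against 30.1 and 29.1 CPM. TTK, the spindle checkpoint kinase, was at 145 and 132 CPM against 59.4 and 52.4 CPM. In these 3 genes the antibodies differed by little. CDC20, the activator of the anaphase-promoting complex, was above its inputs at 334 and 333 CPM against 644 and 523 CPM. The list drawn up for SR and hnRNP splicing factors, which also holds RBM genes, was at -0.31 and -0.04 over 80 genes. RBM42 was raised at 101 and 99.9 CPM against 227 and 227 CPM, and RBM24, PTBP2 and RBM27 were lowered. No gene with an SRSF or HNRNP symbol was called.

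Core autophagy genes, the pathway of LC3B itself, were at -0.24 with IgG and 0.12 with LC3B over 29 genes, with 0 raised and 2 lowered. RB1CC1, the scaffold FIP200 of the initiation kinase, was at 88.6 and 91 CPM against 32.2 and 29.2 CPM, alike with both antibodies. PIK3C3, the class III phosphatidylinositol 3-kinase, was at 17.4 and 18.7 CPM against 0 and 8.48 CPM. SQSTM1, the autophagy receptor p62, was at 360.0 and 363 CPM against 243 and 434 CPM, on opposite sides of its inputs.

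The list drawn up for nuclear-retained lncRNAs, which also holds the mostly cytoplasmic NORAD, was divided by antibody, at 0.12 with IgG and -0.61 with LC3B over 10 genes, with 0 raised and 2 lowered. MALAT1, the abundant speckle RNA, was at 2570 and 2320 CPM against 4230 and 883 CPM, higher with IgG and lower with LC3B. The 2 lowered members were alike with both antibodies. NORAD, a long lncRNA that binds Pumilio proteins, was at 163 and 169 CPM against 48.2 and 58.5 CPM, and MIAT at 28.3 and 30.3 CPM against 12 and 11.3 CPM. LINC and antisense lncRNAs were at -0.05 and 0.28 (50 genes) and at 0.00 and 0.36 (76 genes), and small nucleolar RNA host genes at -0.02 and 0.28 (24 genes), with SNHG30 the only raised gene among the 3 lists.

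Of the lists not described so far, chaperones (62 genes, 1 raised, 1 lowered) were at -0.06 and -0.26, mitochondrial solute carriers (28, 1 raised, 3 lowered) at -0.07 and -0.01, and immediate-early and AU-rich element mRNAs (25, 2 lowered) at 0.21 and 0.28. Glycolysis (14) was at 0.00 and 0.47, integrins (11) at -0.08 and 0.23, and replication-dependent histones (16) at -0.27 and 0.06, with no call in these 3. The 16 histone genes are those of 65 in the count table that passed the input minimum, and polyadenylated RNA was amplified in every library. Endoplasmic reticulum translocation (39, 1 lowered), DNA replication (40, no call), ribosome biogenesis (64, 1 lowered) and RAB GTPases (41, 2 lowered) lay between -0.09 and 0.18 with both antibodies. Chromatin remodellers and histone methyltransferases (46, 3 lowered) were at 0.15 and -0.39.

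**Figure D4:**
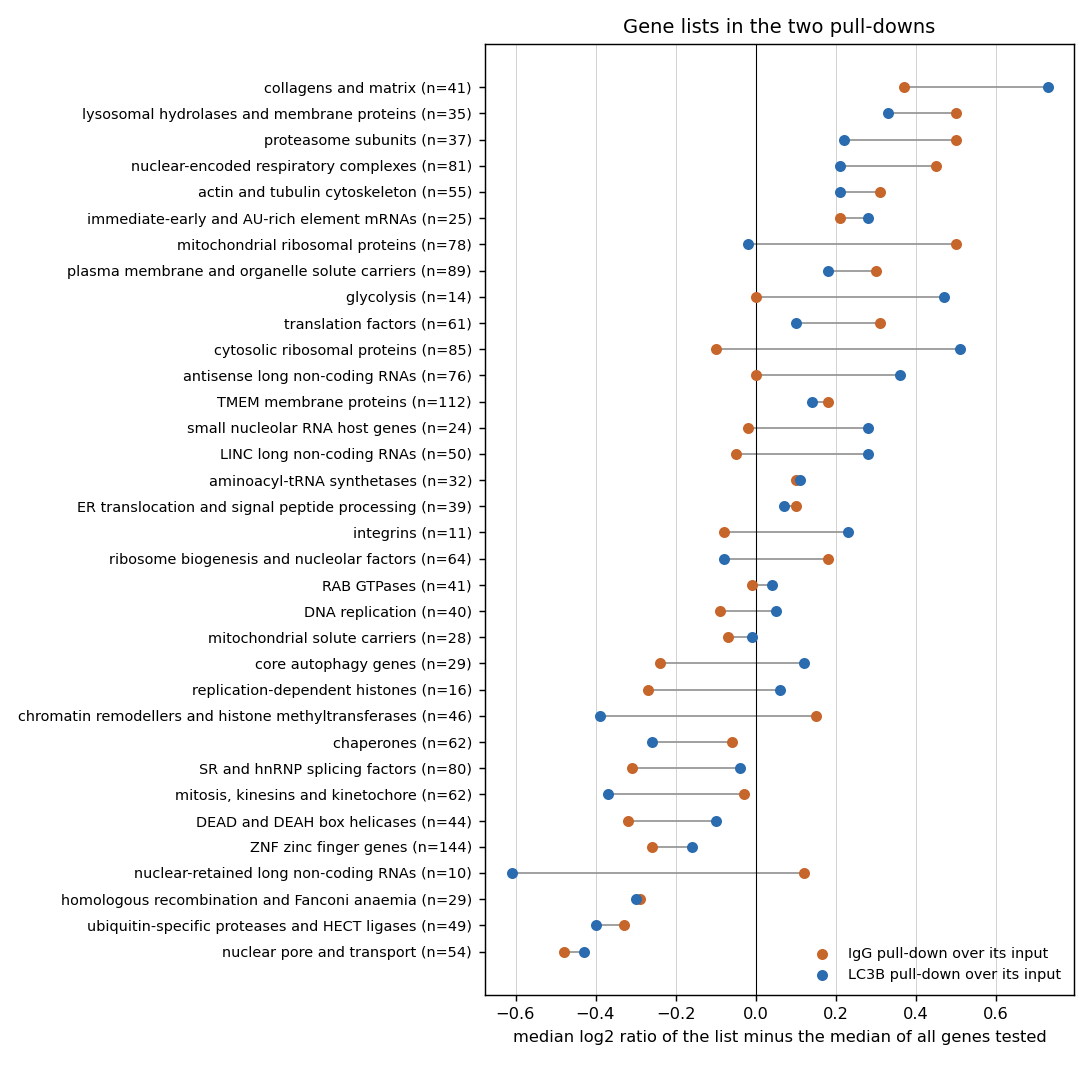
Median log2 ratio of each of 34 gene lists minus the median of all 8672 genes tested, for the IgG and the LC3B pull-down over the own input, with the number of genes tested in each list, ordered by the sum of both values. Collagens and matrix (0.37 and 0.73) are at the top and nuclear pore and transport (-0.48 and -0.43) at the bottom, and the bars joining the points show how far the pull-downs were apart.

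The chromosomes came in a similar order in both pull-downs, with a Spearman rho of 0.86 over 23 chromosomes. Chromosome 19 was highest, at 0.46 with IgG and 0.48 with LC3B relative to all genes over 460 genes, and 10 of the 51 raised genes (19.6%) lay on it, as did 5.30% of all genes tested. They included TFPT, HSPBP1, CCDC124, RFXANK and RBM42. Chromosome 22 followed at 0.42 and 0.29 over 213 genes, and chromosome 16 at 0.27 and 0.23. Chromosome 4 was lowest with IgG, at -0.41 and -0.28 over 306 genes with 0 raised and 21 lowered, and chromosome 13 lowest with LC3B, at -0.24 and -0.37 over 147 genes.

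This order went with the span of the genes. The median span was 14.5 kb on chromosome 19 and 52.7 kb on chromosome 4, and over 23 chromosomes Spearman's rho between median span and median ratio was -0.74 for IgG and -0.93 for LC3B, a description of points that share the same libraries. The position of chromosome 19 was also seen within span classes up to 50 kb. At 20 to 50 kb, 134 genes of chromosome 19 were at 0.23 and 0.46, against -0.05 and -0.08 for all genes of that span, and 83 genes of chromosome 4 at -0.23 and -0.36. At 50 to 100 kb the 24 genes of chromosome 19 were at -0.54 and 0.11. After matching for span and transcript length, chromosome 19 was at 0.24 and 0.31 and chromosome 4 at -0.40 and -0.14.

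**Figure D5:**
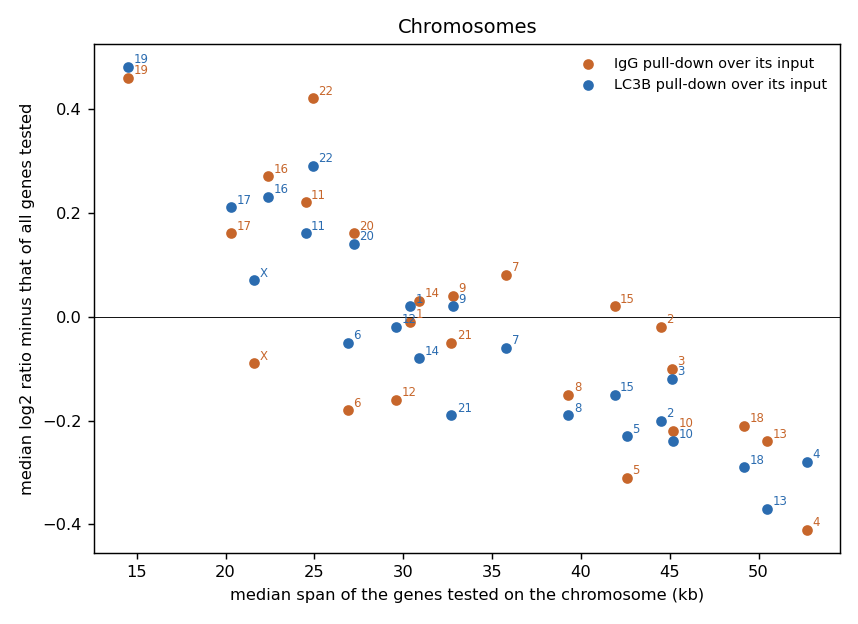
Median log2 ratio of the genes on each of 23 chromosomes minus that of all genes tested (y axis) against the median span of those genes in kb (x axis), for both pull-downs. Chromosome 19, with a median span of 14.5 kb, is highest at 0.46 and 0.48, and chromosome 4, at 52.7 kb, is at -0.41 and -0.28.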

How the data were processed

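The authors deposited raw read counts by Ensembl gene; digits were grouped with commas, which were removed. The authors' TPM values were scaled within each library, per the file headers. The submitters' processing notes name cutadapt 2.8, STAR 2.7.1a and build hg38. The counting tool, annotation release and strand setting are not given there. Coordinates are those of the deposited table. Each pull-down is paired with the input that carries its antibody's name. Over genes, the difference between the inputs and that between the pull-downs had a correlation of 0.06. CPM was computed on totals without mitochondrial genes, with 0.5 CPM added before log2. limma 3.58.1 in R 4.3.3 (eBayes with trend, Benjamini-Hochberg) was tested on simulated counts in which, unlike here, both pull-downs shared each gene's mean. It replaced the count test planned first, since the comma-grouped columns could not be registered as plain counts. Intervals of folds are exact binomial, 95%, and cover counting error only, since reads without molecular identifiers are not independent molecules. A count of 0 allows up to 3 reads, 0.289 to 0.357 CPM. Nothing says that libraries came from separate cultures, so p-values measure only the spread between these libraries. Named genes were the 12 raised and 12 lowered with the largest nearest-pair fold, up to 3 with the highest and 3 with the lowest mean log2 ratio and the 2 most abundant in the inputs of each list, biotype or span class, called list members, and MALAT1. TRBC2 is the single gene of its biotype. Members and lists were chosen with earlier results of these data known. Genes that share a symbol were not named, and 1 gene below the input minimum is not reported here. Alternatives were TMM and median-of-ratios factors from purpose-written code, totals with mitochondrial reads, input minimums of 10, 50 and 500 reads, folds of 1.5 and 4, added values of 0.1 and 2 CPM, TPM, library weights, the pair as a block and leaving out each library.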

Additional observations from a re-analysis of the deposited data

Results flagged for a closer look

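In 12 of the 34 gene lists the pull-downs lay on opposite sides of the median of all genes, and the difference between them was not tested. The relative median with LC3B minus that with IgG was above 0 in 8 of them. It was 0.61 for cytosolic ribosomal proteins (85 genes), 0.36 for core autophagy genes (29), 0.33 for replication-dependent histones (16) and for LINC lncRNAs (50), and 0.31 for integrins (11). It was 0.30 for small nucleolar RNA host genes (24), 0.14 for DNA replication (40) and 0.05 for RAB GTPases (41). It was below 0 in the other 4 lists, at -0.73 for the list of nuclear-retained lncRNAs (10 genes), -0.54 for chromatin remodellers and histone methyltransferases (46), -0.52 for mitochondrial ribosomal proteins (78) and -0.26 for ribosome biogenesis (64).

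Below the input minimum, the 7 genes given here had at most 10 reads in each input and at least 30 in each pull-down. The nearest-pair fold, the lower pull-down over the higher input, was 7.61 for SULT1A4 (2 and 4 reads in the IgG and LC3B inputs, 35 and 40 in the pull-downs), which is nearly identical to SULT1A3, so that its level is uncertain. BX470111.1, annotated as protein-coding on the X chromosome, had 0 reads in both inputs and 50 and 52 in the pull-downs, at least 14-fold higher when each input is set to 3 reads. The fold was 3.82 for DUSP9 (7 and 7 against 71 and 33 reads), 3.29 for TSHZ1 (5 and 9 against 66 and 36), 3.16 for TMEM121 (10 and 10 against 163 and 39), 3.14 for ERFE (8 and 8 against 148 and 31) and 2.74 for AL592211.2 (8 and 9 against 60 and 30). They were picked on these counts from all genes outside the test, so the folds are descriptions.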

How the results depend on the processing

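Each antibody has 1 library, and 491 of the genes tested had no read in the IgG pull-down although its 9824400 reads outside mitochondrial genes were more than those of either input. The planned edgeR and DESeq2 fits were not run, because the count columns could not be registered as counts. For limma, the antibody pair as a replicate block gave 41 genes higher and 270 lower, and library weights, added after the data were seen, gave 15 lower. Leaving out each library gave 0 to 2637 higher and 1 to 4199 lower. Raised and lowered genes numbered 303 and 134 on totals with mitochondrial reads, 115 and 646 at an input minimum of 10, 15 and 152 at 500, 413 and 1007 at 1.5-fold and 0 and 13 at 4-fold, and TPM gave 27 raised. Leaving out each library, which can only keep or add calls, gave 70 to 708 raised and 429 to 2294 lowered. The relative median of genes under 5 kb, 0.46 here, was 0.35, 0.43 and 0.40 at input minimums of 10, 50 and 500 reads, 0.40 with TPM and 0.44 to 0.46 when each library was left out. That of genes of 100 to 200 kb, -0.38 here, was -0.30 with TPM and -0.40 to -0.32 when each library was left out. The lncRNA median was -0.01 at an input minimum of 10. Of 442 recalculated list medians, 361 moved by less than the spread between the pull-downs, 74 moved more and 7 were counted as reversed. A scaling factor nearly cancels in a relative median, so TMM, median-of-ratios and totals with mitochondrial reads could hardly move one. The spread is each list's own and is wide where the antibodies differed, at 0.43 for cytosolic ribosomal proteins. The 361 are therefore no measure of stability. Some changes of sign were not counted as reversed. Without the LC3B pull-down, cytosolic ribosomal proteins went from 0.25 to -0.1. Without the IgG pull-down, mitochondrial ribosomal proteins went from 0.3 to -0.02. Mitochondrial solute carriers went from 0.04 to -0.17 at a minimum of 500. Reversed were aminoacyl-tRNA synthetases at a minimum of 500 (-0.24), integrins at 10 (-0.16), at 500 (-0.03) and without the LC3B pull-down (-0.08 to 0.34 when each library was left out), solute carriers at 10 (-0.13), nuclear pore genes at 500 (0.04) and LINC lncRNAs without the LC3B pull-down (-0.05 to 0.28 when each library was left out).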
